A study of Caenorhabditis elegans with 2 samples.

Results

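Genes that lie next to each other and are read in opposite directions share the DNA between their starts as a common promoter, and 525 of the 3838 LIN-35 peaks mapped in L1 larvae, the first larval stage of the worm Caenorhabditis elegans, lay in such a divergent promoter on an autosome. A peak was a member when its summit, the base of highest signal, lay within 500 bp of a minus-strand gene start to its left and within 500 bp of a plus-strand start to its right. A start was the 5′ end of the record of a protein-coding gene. The rule used position only, so peak strength, sequence and gene function were not part of it. The 3838 peaks were those the authors kept by irreproducible discovery rate (IDR), which keeps peaks whose ranks repeat between replicates. The 525 members lay at 520 distinct pairs of starts with 1040 genes, which is 6.03% of the 17242 autosomal protein-coding genes. Of the other autosomal IDR peaks, 1397 lay within 500 bp of a start without such a pair and 1431 had no start within 500 bp. A further 17 peaks at divergent promoters of the X chromosome were not members.

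The peaks came from chromatin immunoprecipitation with sequencing (ChIP-seq) of whole, mixed-sex L1 larvae, in 1 group of 2 biological replicates. The strain was YL409, an unc-119(ed3) mutant with the transgene vrIs60, which encodes a LIN-35:GFP:FLAG fusion between the promoter and the 3′ UTR of lin-35, together with unc-119(+) as a rescue. The antibody target is labelled lin-35 and the bound protein eGFP-lin-35, and the fusion is an added copy in larvae for which no lin-35 deletion is labelled. With 1 group there was no comparison between conditions, and whole larvae give no view of which cells carried a peak. Every member was described from 3 peak lists, namely the list pooled over both replicates, from which the IDR list was drawn, and the list of each replicate alone. The lists hold no read counts, so the depth is unknown, and the exact binomial 95% intervals below cover counting error only.

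LIN-35 is the only retinoblastoma-family pocket protein of C. elegans. It works in the DREAM complex, where the E2F-DP pair EFL-1 and DPL-1 binds E2F motifs and the subunit LIN-54 binds the cell cycle genes homology region (CHR), and the complex represses genes of cell division and, in somatic cells, genes of the germline. LIN-35 itself does not read DNA. At a divergent promoter a single bound complex lies upstream of both genes, and position alone does not tell which of them it acts on.

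Short stretches at strong members are printed to show what these words look like under a peak. They are reference sequence from the RefSeq WBcel235 assembly, which is the ce11 build of the peak lists, 5′ to 3′ on the strand named. The E2F word searched was TTCCCGC. The spelling TTCGCGC was counted as well, and so were the spelling TTGCCGC and, as the last, the spelling TTGGCGC. The CHR word searched was TTTGAA. The spelling TTCGAA, which is its own reverse complement, was counted as well. All were searched on both strands. The first 5 sequences come from 5 of the strongest members with an E2F word within 50 bp of the summit, with that word in capitals.
fipr-17/Y48A6B.3, chrIII:11007852-11007880, plus strand: tctaatttgaaTTCCCGCcaacgaattgt
Y53F4B.9/Y53F4B.11, chrII:15010651-15010679, minus strand: cctgatttgaaTTGCCGCgtttttaacga
K07B1.7/try-5, chrV:9347032-9347060, minus strand: ttgaatttgaaTTCCCGCtgaaataagag
npp-3/top-2, chrII:11874867-11874895, plus strand: gctgtgtatttTTCGCGCgttcgctgcga
T23F6.3/rbd-1, chrIV:12724810-12724838, plus strand: ccaatttcaatTTCGCGCtatgactacga
The next sequence is from the strongest member with a CHR word and no E2F word, with the CHR word in capitals.
elb-1/Y41C4A.11, chrIII:11719621-11719648, minus strand: ggaaatctaaaTTTGAAtgcgcgcgcaa
The last 3 are strong members with neither word within 50 bp, with the summit base in capitals.
ZK795.2/ZK795.3, chrIV:12559196-12559224, plus strand: gcgcattttcttgcAggtacacttttgcg
ska-3/rps-12, chrIII:5679121-5679149, plus strand: agcacatttcactgTgccgcgactcaaag
W02H5.16/W02H5.19, chrV:2638692-2638720, plus strand: gcgcttttgcggtgGccgcggccgtgaaa
In the first 3 of these sequences the CHR word TTTGAA ends at the base before the E2F word starts.

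LIN-35 peaks at divergent promoters had a higher median signal than the other autosomal peaks. Ranks count from 1, the strongest of the 3838 IDR peaks. The median rank of the members was 1029, with quartiles of 491 and 1888, against 1458 (602 and 2571) at other starts and 2359 (1539 and 3182) away from starts. The members' median signal, in the units of the authors' peak caller, was 228, with a range of 56.1 to 2231, against 162 at other starts and 102 away from starts. Of the members, 396 (75.4%) were among the stronger 1919 IDR peaks, against 841 (60.2%) of the peaks at other starts and 526 (36.8%) of those without one. Among the 200 strongest peaks were 44 of the 525 members, 143 of the 1397 peaks at other starts and 13 of the 1431 without one. The first 2 kinds differ in size, and as a share of their kind the members did not lead at the very top. The 17 divergent peaks on the X chromosome had a median rank of 2487.

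**Figure D1:**
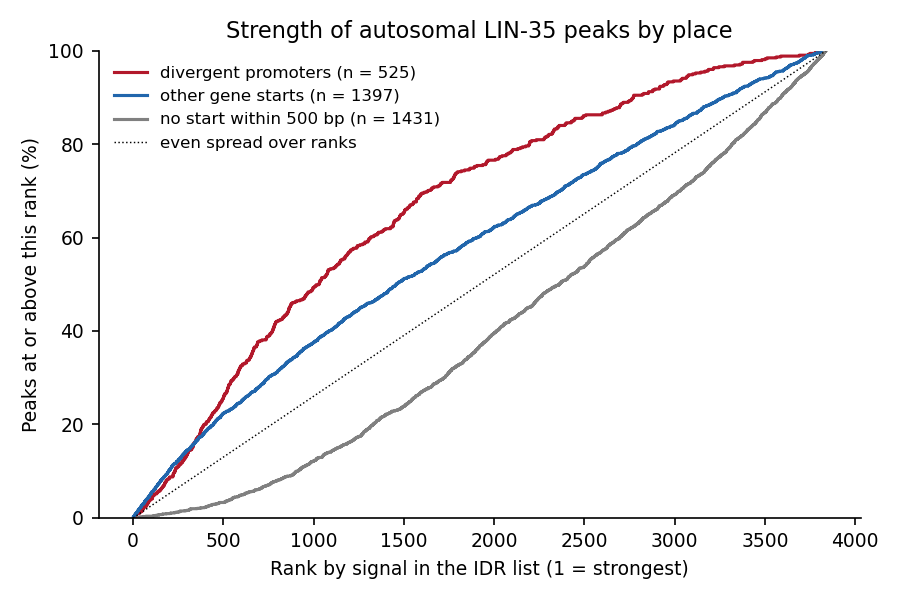
Share of the autosomal IDR peaks of each kind (vertical axis, percent) found at or above a given rank by signal (horizontal axis, 1 is strongest), with a dotted line for an even spread. The curve of the 525 divergent promoters lies above that of the 1397 other starts over most ranks, as do the medians of 1029 and 1458, and the curves run together among the strongest peaks.

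The members had the stronger median at each distance from the nearer start. Members whose nearer start was less than 100 bp from the summit had a median rank of 1030 (n = 200), those at 100 to under 200 bp 995 (n = 212), those at 200 to under 300 bp 937 (n = 87) and those at 300 to 500 bp 1274 (n = 26). Peaks at other starts had medians of 1706, 1281, 1386 and 1574 in the same 4 distance classes, with n of 320, 441, 300 and 336. Peaks at other starts could lie on either side of their start, while members lie upstream of both genes by the rule. Differences between kinds of peak are given as description, since single regions of 1 experiment are not replicates of a condition.

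Both replicates held the members. Of 525, 519 overlapped a peak of replicate 1, 524 a peak of replicate 2, and 518 (98.7%) a peak of each. The share was 98.4% at other starts and 95.7% away from starts. The median rank of the members was 1021 within replicate 1 and 994 within replicate 2, and the ranks of the 518 shared members correlated with a Spearman rho of 0.89 across members, which come from the same 2 libraries. In 476 members (90.7%) the overlapping peak was among the strongest 3838 of each replicate. Replicate 1 was the weaker list for some members, with 33 of them ranked below 3838 there and down to rank 20238, while in replicate 2 only 9 were below 3838 and the lowest rank was 5214. The IDR list was made from these same lists, which hold 23835 entries for replicate 1 and 30000 for replicate 2, and 1 bp of overlap was enough. A near-complete overlap therefore follows largely from how the peaks were chosen.

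**Figure D2:**
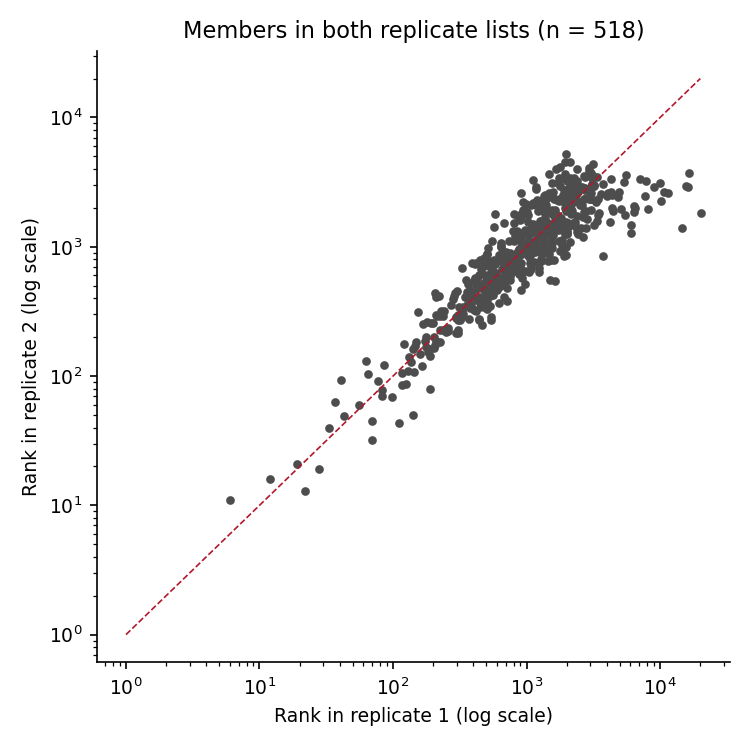
Rank of each of the 518 members found in both replicates, in replicate 1 (horizontal, log scale) and replicate 2 (vertical, log scale), with equal ranks along the dashed line. Points follow the line with a Spearman rho of 0.89, apart from a tail to the right of members ranked lower in replicate 1, which reach rank 20238.

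The strongest member, with rank 9 of all IDR peaks and a pooled signal of 2231, lay between fipr-17, a relative of fungus-induced peptide genes, and Y48A6B.3, a subunit of the H/ACA particles that guide pseudouridylation of RNA. It ranked 6 in replicate 1 (signal 747) and 11 in replicate 2 (signal 1488). The signals of the lists were not placed on a common scale, so only ranks are compared between replicates, and in both this promoter was close to the top. Its summit lay 287 bp from the start of fipr-17 and 333 bp from that of Y48A6B.3.

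The second, at rank 14 with a pooled signal of 2032, lay between clsp-1, the claspin homologue of the replication checkpoint, and eef-2, the elongation factor that moves the ribosome along the message. Its summit was 7 bp from the start of eef-2 and 258 bp from that of clsp-1, and it ranked 12 in replicate 1 (signal 638) and 16 in replicate 2 (signal 1402). Both replicates thus placed it in their first 20 peaks. The member between Y53F4B.9, with an AAA+ ATPase domain, and Y53F4B.11 had rank 15 (pooled signal 2007), with ranks of 22 and 13 in replicates 1 and 2 (signals 543 and 1476). The member between elb-1, which encodes the ubiquitin-like elongin B, and Y41C4A.11 had rank 20 (pooled signal 1919.6), with ranks of 19 and 21 (signals 579 and 1332).

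The promoter of lin-35 itself was a member at rank 21, with a pooled signal of 1889.6. It shares that promoter with vps-51, a subunit of a tether for vesicles at the Golgi, and the summit lay 181 bp from the start of lin-35 and 237 bp from that of vps-51. Its ranks were 28 in replicate 1 (signal 522) and 19 in replicate 2 (signal 1358). The transgene of the strain carries the lin-35 promoter too, so reads from the transgene and from the chromosome cannot be told apart here.

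At rank 36 (signal 1588), K07B1.7, a G-patch protein, lay beside try-5, a protease of seminal fluid that activates sperm, and the 2 starts were only 82 bp apart. At rank 38 (signal 1584), npp-3, a scaffold protein of the nuclear pore, lay beside top-2, the DNA topoisomerase that untangles chromosomes. At rank 49 (signal 1485), T23F6.3, a RING-finger protein, lay beside rbd-1, an RNA-binding protein of ribosome assembly. At rank 51 (signal 1467), hpr-17, the Rad17 clamp loader of the DNA damage checkpoint, lay beside F32A11.1, a Tim21-type protein of mitochondrial import. Within the replicates these 4 members ranked 33, 69, 43 and 70 in replicate 1 and 40, 32, 49 and 45 in replicate 2, so all of them were among the first 70 peaks of each.

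The remaining members among the 15 strongest had ranks of 54 to 76. They were ZK795.2/ZK795.3, of which ZK795.3 has the Brix domain of ribosome assembly factors (rank 54), haf-3/F57A10.2, a transporter gene and a gene of the major sperm protein family (56), ego-2/Y53H1C.3 (57), zip-4/nol-58, of which nol-58 encodes a core protein of box C/D small nucleolar particles (69), rpl-12/lin-54, a ribosomal protein and the CHR-binding subunit of DREAM (74), and cct-6/alh-9, a chaperonin subunit and an aldehyde dehydrogenase (76). Their lowest ranks within a replicate were 142 in replicate 1, for zip-4/nol-58, and 94 in replicate 2, for rpl-12/lin-54. In all 15 the nearer start was the same in the pooled list and in both replicates, and the replicate summits differed by 1 to 16 bp.

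The rule places every summit between the 2 starts, and within that interval the summits were spread widely. The starts of a member were 67 to 947 bp apart, with a median of 391 bp and quartiles of 270 and 533 bp. The summit was a median of 128 bp from the nearer start (quartiles 60.0 and 187 bp) and 263 bp from the further one. The nearer start was within 50 bp in 101 members and within 100 bp in 201. In 273 members (52.0%) it lay in the middle of 3 equal parts of the interval, where the 500 bp rule itself holds the summits of the widest pairs. Both starts were within 250 bp of the summit in 243 members and within 100 bp in 19. The minus-strand gene was nearer in 245 members, the plus-strand gene in 279, and the distances were equal in 1. Signal was nearly unrelated to geometry, with a Spearman rho of 0.08 with the spacing and 0.03 with the distance to the nearer start across the 525 members.

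**Figure D3:**
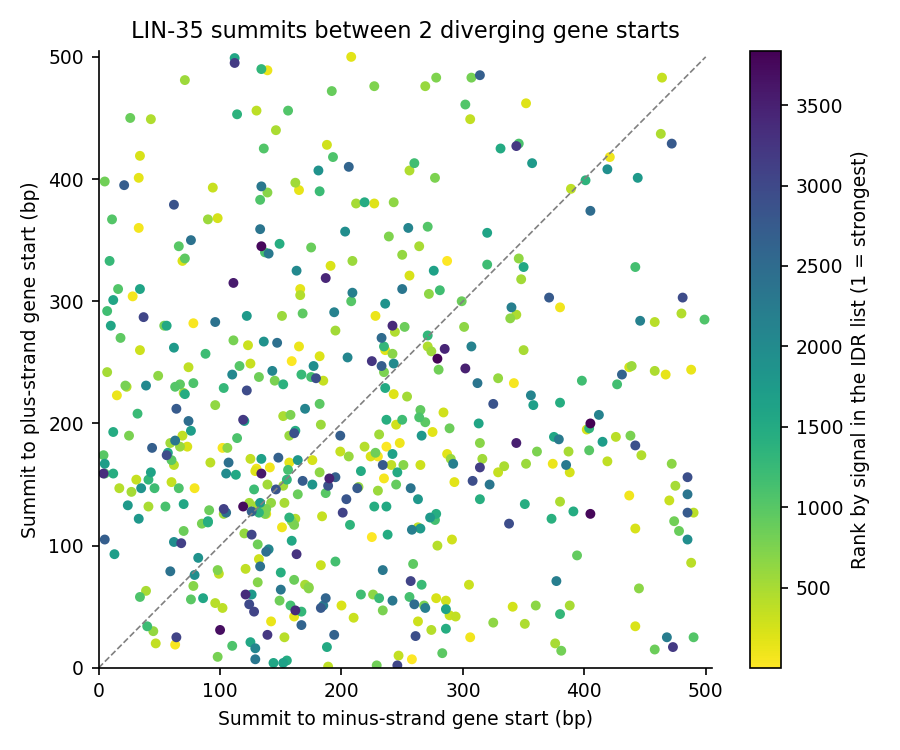
Distance in bp from the summit to the minus-strand start (horizontal) and to the plus-strand start (vertical) for the 525 members, coloured by rank in the IDR list, with equal distances along the dashed line. Points lie on both sides of the line, 245 nearer the minus-strand gene and 279 nearer the plus-strand gene, and strong and weak peaks are mixed throughout.

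Replicate summits were close enough to place most peaks but not all. The summits of the 2 replicates differed by a median of 13 bp at the 518 shared members, with an upper quartile of 26 bp and a maximum of 227 bp. They were within 50 bp of each other in 476 (91.9%) and within 100 bp in 502 (96.9%). The median difference was 15 bp at other starts and 30 bp away from starts. The nearer gene was the same in the pooled list and both replicates in 459 of the 518 (88.6%). Where the 2 distances differed by over 100 bp this held for 286 of 294 members (97.3%), and where they differed by 100 bp or less for 173 of 224 (77.2%). Among the 100 strongest members the furthest replicate summits were 33 bp apart at ify-1/rpl-22 (securin, which holds back separase, and a ribosomal protein), 27 bp at prcc-1/C39E9.12 and 26 bp at syf-2/K04G7.1.

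The closest starts belonged to gei-14/slc-25A32, a folate carrier of mitochondria being the second gene, with a spacing of 67 bp and rank 349. They were followed by trm-1/ints-2, a tRNA methyltransferase and an Integrator subunit (74 bp, rank 1203), and madf-8/gsr-1, the latter glutathione reductase (75 bp, rank 627). At trm-1/ints-2 the nearer gene changed between lists. The widest spacing was 947 bp at snf-6/mtg-1, where snf-6 encodes an acetylcholine transporter (rank 339), then 901 bp at rtfo-1/K09G1.1 (rank 2766) and 900 bp at sqv-3/vha-1, where vha-1 encodes a subunit of the proton-pumping V-ATPase (rank 473). The 500 bp limit cut through a continuum. The member just inside it was clic-1/srr-10 with a further start at 500 bp (rank 173, signal 916), and the peak just outside was at kbp-3/nurf-1 with 501 bp (rank 288, signal 654).

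Counted by gene pair, the genome held 1665 pairs of neighbouring autosomal genes with diverging starts at most 1000 bp apart, and 519 of them (31.2%, interval 29.0 to 33.5%) held a member. The remaining member promoter, lin-7/elof-1, has an additional gene at the start of lin-7 and is not among these pairs. An IDR summit of any kind lay between the starts of 646 pairs (38.8%), in 10 of them more than 1. Of the 1019 pairs without an IDR summit, 201 (19.7%) held a summit of the pooled list. That list has 30000 entries and is labelled as peaks and background for input to IDR, so such a summit need not mark LIN-35 binding. By gene, 2489 of 17242 autosomal genes (14.4%) carried an IDR summit no more than 500 bp from their start. This was so for 1273 of 3330 genes with a divergent partner (38.2%, 36.6 to 39.9%) and for 1216 of 13912 genes without one (8.74%, 8.28 to 9.22%). A summit between close starts counts for both genes of a pair, so genes in pairs are not independent.

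Occupied pairs were unevenly spread over spacings. An IDR summit lay between the starts in 11.3% of the 53 pairs spaced 1 to 100 bp, 25.4% of the 189 pairs at 101 to 200 bp, 46.2% of 247 at 201 to 300 bp, 52.0% of 204 at 301 to 400 bp and 50.8% of 185 at 401 to 500 bp. The share was lower again at wider spacings, with 41.8% of 194 pairs at 501 to 600 bp, 37.3% of 338 at 601 to 800 bp and 27.8% of 255 at 801 to 1000 bp. Per kb of interval the order was different: summits were densest in the closest pairs, at 2.09 per kb, and sparsest in the widest, at 0.324 per kb. A short interval offers fewer bases for a summit, so a low share there is not a low density. The 500 bp rule leaves out part of the wide pairs, and only 7 of the 255 widest pairs held a member.

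**Figure D4:**
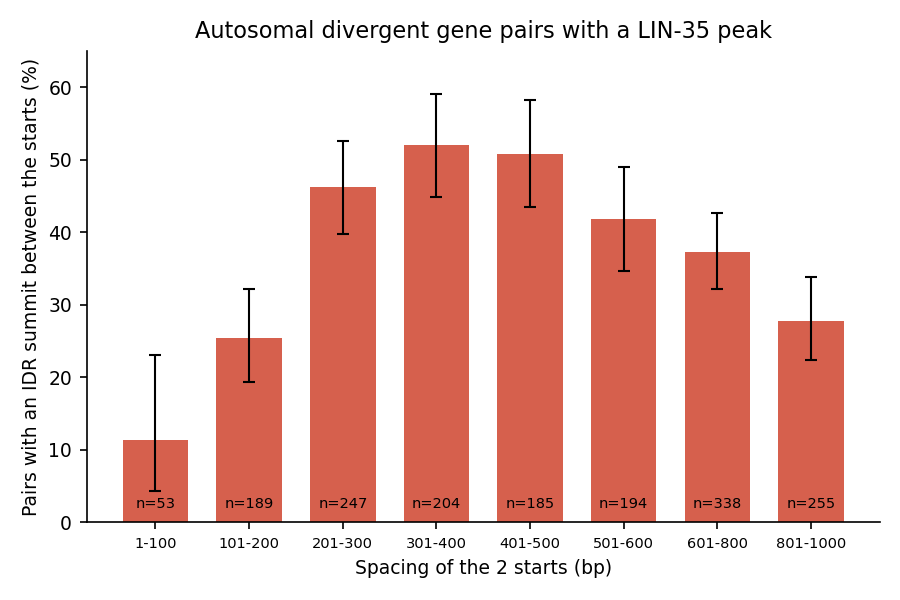
Share of autosomal divergent gene pairs with an IDR summit between their starts (vertical, percent) by spacing of the starts in bp (horizontal), with exact binomial 95% intervals and the number of pairs in each bar. The bars rise to 52.0% at 301 to 400 bp and are lower on both sides.

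Chromosomes differed in the share of their divergent pairs that held a member. It was 46.6% of 290 pairs on chromosome III (interval 40.7 to 52.5%) and 41.9% of 320 on chromosome I (36.4 to 47.5%), 30.2% of 308 on chromosome IV (25.1 to 35.7%), 24.1% of 324 on chromosome II (19.5 to 29.1%) and 18.7% of 423 on chromosome V (15.1 to 22.7%). The intervals of chromosomes III and I overlapped each other, and those of chromosome V stayed below both. Members numbered 138 on chromosome I, 136 on III, 93 on IV, 79 on II and 79 on V. On the X chromosome, outside the rule, 17 of 80 divergent pairs (21.2%) met the same criterion.

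The genes at these promoters were next sorted by function with 22 gene lists, in which 919 autosomal genes were named and 251 of them were genes of a member. Both genes of the promoter were listed in 37 members, 1 gene in 180 and neither in 308. The median rank was 775 for members with a listed gene and 1162 for those without. The counts are read against the 14.4% of all autosomal genes with an IDR summit at the start and the 6.03% at a member. Of the 3330 autosomal genes with a divergent partner 31.2% were at a member, against 1 of the 13912 without one. The share of a list at members therefore also depends on how many of its genes have a partner.

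Cell division was represented at divergent promoters mainly by mitotic and replication genes. Of 61 mitosis and chromosome segregation genes, 49 (80.3%) had a summit that close and 28 (45.9%) were at members, with a median rank of 570. The strongest were top-2, hcp-6, a condensin II subunit that compacts chromosomes (rank 201), and ify-1 (rank 203). Of 41 DNA replication genes, 36 (87.8%) had a summit and 15 (36.6%) were at members, with a median rank of 432, led by clsp-1, rfc-4 of the sliding clamp loader (rank 107), and orc-5 of the origin recognition complex (rank 120). In the mitosis list the listed gene was the nearer of the pair in 16 of 28, and in the replication list in 8 of 15. The cell cycle regulators stood nearer the background when all genes of the list were counted, though only 7 of the 34 had a divergent partner. Members held 57.1% of those 7, against 31.2% of all autosomal genes with a partner. Of 34, 8 (23.5%) had a summit and 4 (11.8%) were at members, among them cyb-1, a B-type cyclin at rank 120, cdk-1, the kinase it activates, at rank 688, and emb-27, a subunit of the anaphase-promoting complex, at rank 970.

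Of 45 DNA repair and checkpoint genes, 21 (46.7%) had a summit and 10 (22.2%) were at members, with a median rank of 750. They were led by hpr-17, by polh-1, the translesion polymerase eta (rank 105), and by atm-1, the damage-response kinase (rank 523). Members held 55.6% of the 18 repair and checkpoint genes with a divergent partner. The DREAM list had 8 autosomal genes, 6 with a summit, and all 3 of those with a divergent partner, lin-35, lin-54 and lin-53, were at members. The lin-53 promoter, which serves a histone-binding protein and the nicalin gene nra-2, had rank 185, with ranks of 175 and 186 in the replicates. Of 22 other synMuv genes, which like lin-35 restrain vulval fate, 3 were at members, namely trr-1 (rank 591), epc-1 (736) and lin-61 (1161).

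Genes of protein synthesis were the largest group. Of 82 cytoplasmic ribosomal protein genes, 72 (87.8%) had a summit within 500 bp and 40 (48.8%) were at 37 member peaks with a median rank of 542. The strongest were rpl-12, rps-12, beside the spindle and kinetochore gene ska-3 (rank 78), and rpl-5, beside the collagen gene col-38 (rank 92). The ribosomal protein gene was the nearer of the pair in 13 cases, and in 10 of these both replicates gave the same side. The summit was a median of 288 bp from the ribosomal protein gene and 209 bp from its partner. Of 56 genes for translation factors and tRNA synthetases, 34 (60.7%) had a summit and 15 (26.8%) were at members (median rank 963), led by eef-2, eef-1A.1 and eef-1G (ranks 14, 107 and 131). Of 68 mitochondrial ribosomal protein genes, 33 (48.5%) had a summit and 17 (25.0%) were at members, with a weaker median rank of 1552, led by mrps-7, mrpl-17 and mrpl-49 (ranks 448, 541 and 580). Of the genes with a divergent partner, members held 81.6% of 49 cytoplasmic ribosomal, 53.6% of 28 translation and 73.9% of 23 mitochondrial ribosomal genes.

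Among the other lists of general cell function the share at members ranged from 15.1% to 47.1%. Counting only genes with a divergent partner, it ranged from 53.3% of 15 RNA polymerase and general transcription genes to 80.0% of 20 proteasome genes. Of all autosomal genes with a partner 31.2% were at a member. Members held 25 of 55 splicing factor genes (45.5%), at a median rank of 868 and led by rsr-1, snr-2 and syf-2 (ranks 132, 243 and 254), and 16 of 34 proteasome genes (47.1%), at a median rank of 998 and led by pbs-1, rpn-3 and rpn-5 (ranks 222, 278 and 298). They held 14 of 38 genes of nucleoporins and nuclear transport (36.8%, median rank 1414), led by npp-3, npp-14 and imb-1 (ranks 38, 350 and 416). They held 15 of 42 oxidative phosphorylation genes (35.7%, median rank 700), led by cox-10, atp-1 and nuo-1 (ranks 337, 377 and 474), and 15 of 47 genes of protein folding and secretion (31.9%, median rank 572), among them cct-6 and hsp-110 (ranks 76 and 278). Of 53 genes of RNA polymerases and general transcription, 8 (15.1%) were at members, led by taf-6.2, rpb-3 and rpb-12 (ranks 372, 618 and 866).

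Germline and tissue lists differed among themselves. Members held 2 of 34 meiosis genes (5.88%), syp-2 and syp-3 of the synaptonemal complex, both weak (ranks 2600 and 3778), and 2 of 43 P granule and germline genes (4.65%), spn-4 (rank 255) and nos-3 (rank 684). Both shares are near the 6.03% of all autosomal genes. Counting only genes with a divergent partner, members held 2 of 16 meiosis genes and 2 of 10 P granule and germline genes. Both shares are below the 31.2% of all autosomal genes with a partner, though they rest on few genes. Members held 7 of 42 small RNA genes (16.7%), led by rde-4, mut-15 and rde-8 (ranks 348, 374 and 826). They held 36.8% of the 19 small RNA genes with a partner. The 20 muscle and 17 intestine marker genes were at no member, though only 1 and 3 of them had a divergent partner. Of 28 neuron marker genes 1 was at a member, ric-19, which acts in dense core vesicles (rank 116, with 144 and 108 in the replicates), and it was also the only one with a divergent partner.

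Histone genes are often arranged as divergent pairs, and 39 of the 52 listed autosomal histone genes had a divergent partner. Of these 52, 14 (26.9%) had a summit. The 11 genes at members were 28.2% of the 39 with a partner, against 31.2% of all autosomal genes with one. They lay at 6 member peaks. The strongest was at htz-1, the H2A.Z variant gene beside the cohesin release gene wapl-1 (rank 156), and the median rank of the 6 was 3054. The peak between his-67 and his-68 had rank 1522, and the peaks at his-35/his-41, his-61/his-62, his-31/his-32 and his-4/his-3 ranked 3031 to 3587. Histone gene copies are near-identical, so reads between copies can be assigned wrongly and the peaks between copies are uncertain.

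Where both genes were listed, they came more often from different lists than from the same list. Whether this differs from other listed divergent pairs was not tested. In 12 of the 37 both genes came from the same list: 5 were the histone pairs named above, and the others included rsp-2/rsp-1 (rank 373), snu-13/rsp-7 (rank 656), rps-14/rpl-36 (rank 451), rps-10/rpl-24.1 (rank 504) and rpl-39/rps-30 (rank 687). Several of the strongest joined a gene of the DREAM, replication, mitosis, cell cycle or repair lists to a gene of the ribosomal protein or translation lists, a grouping made after the values were seen. There were 8 such pairs among the 1665 divergent pairs, and 7 held a member: clsp-1/eef-2, rpl-12/lin-54, polh-1/rps-22, eef-1A.1/rfc-4, ctf-4/eef-1G, ify-1/rpl-22 and iff-1/cdk-1. Their median rank was 107 and 5 of the 7 were among the 200 strongest peaks, while tars-1/xpf-1 held no member. Of the pairs with both genes in the ribosomal protein or translation lists, 4 of 4 held a member (median rank 542), and of those with both genes in the other group of lists 2 of 4 did. In ctf-4/eef-1G, the replisome adaptor gene ctf-4 was 142 bp from the summit and eef-1G 38 bp (rank 131, with 166 and 120 in the replicates). Further pairs with both genes listed were orc-5/cyb-1, hsp-110/rpn-3, rpn-5/scc-1 (proteasome and cohesin, rank 298), rpl-36.A/nuo-1, pbs-2/eif-6 (531), rpl-28/mrpl-49 (580), pas-4/rpb-3 (618) and rps-9/lsm-1 (630).

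Many member genes stood at the head of a run of genes in the same direction. In C. elegans, operons are such runs with short gaps, in which the first gene's promoter serves those that follow. Of the 1040 genes at members, 373 (35.9%) had another start on the same strand within 500 bp of their end. The share was 20.4% of all 17242 autosomal genes, 25.3% of the 3330 genes in divergent pairs and 18.5% of the 2038 genes in pairs without an IDR summit. In 299 of the 520 promoters (57.5%) at least 1 of the genes was so followed, and in 74 both were. Whether these runs are transcribed as operons was not tested. No member summit lay inside the record of another protein-coding gene, and 52 members lay in an interval that held a whole non-coding gene, 47 of them with a gene annotated as ncRNA. The only microRNA was mir-5549, between eef-1A.1 and rfc-4.

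E2F words were more frequent within 50 bp of the summit than 500 bp away, and so were the same words read backwards. CHR words were found over the whole 500 bp on either side. Within 50 bp of the summit, 79 members (15%, interval 12.1 to 18.4%) had an E2F word, against 13.0% of all IDR peaks, 17.4% of peaks at other starts and 2.85% of the midpoints of the 1019 divergent pairs without an IDR summit. At 500 bp to either side of the members' summits the share was 3.62% and 3.62%. The words read backwards, which have the same base composition, were found in 13.5% of the members, in 9.81% of peaks at other starts, in 1.37% of the pairs without a summit and in 2.29% of the windows at 500 bp. At the members the interval of the E2F share included the share of the reversed words. E2F words exceeded the reversed words by 1.52 percentage points at the members and 1.33 at 500 bp to either side. The excess was 7.59 at other starts, 4.64 at all IDR peaks and 1.47 at pairs without a summit. The median GC content was 45.5% at the members' summits, 32.7% at the midpoints of pairs without a summit, and 38.6% and 39.6% at 500 bp to the left and right, and its part in these shares was not tested.

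CHR words were within 50 bp of the summit in 180 members (34.3%, 30.2 to 38.5%), against 24.6% of all IDR peaks, 32.3% of peaks at other starts and 36.0% of the midpoints of pairs without a summit. Reversed CHR words were found in 10.1% of the members, 9.09% of peaks at other starts and 21.1% of the pairs without a summit. The members therefore had CHR words at 24.2 percentage points above the reversed words, the peaks at other starts at 23.2, the pairs without a summit at 14.9, and windows 500 bp to the left and right of the members at 13.9 and 13.5. Both kinds of word were present in 35 members (6.67%), either in 224 (42.7%) and neither in 301 (57.3%). The E2F word nearest the summit was a median of 21 bp away in the 79 members that had one, and the CHR word a median of 32 bp in the 180.

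**Figure D5:**
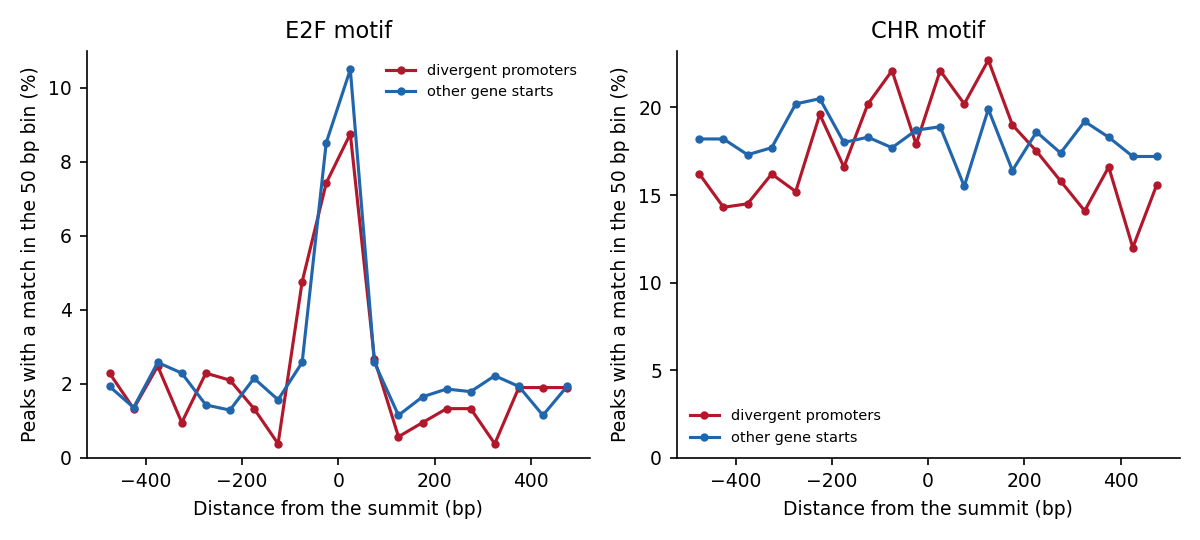
Share of peaks with a word in each 50 bp bin (vertical, percent) by distance of the bin from the summit in bp (horizontal), for E2F words (left) and CHR words (right), at divergent promoters and at other gene starts. E2F words peak in the bins beside the summit, at 7.43% and 8.76% of the divergent promoters, while CHR words range from 12.0% to 22.7% over the whole span. Reversed words are not shown.

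The strongest members had both kinds of word more often than the weaker ones. Of the 44 members among the 200 strongest IDR peaks, 14 (31.8%, 18.6 to 47.6%) had an E2F word and 27 (61.4%, 45.5 to 75.6%) a CHR word, while the reversed words were found in 25.0% and 9.09%. In the 396 members of the stronger 1919 peaks the shares were 18.2% and 35.9%, and in the other 129 members 5.43% and 29.5%. Reversed E2F words were in 14.6% of the stronger and 10.1% of the weaker members, with intervals of 11.3 to 18.5% and 5.48 to 16.6%, and in the weaker members this interval overlapped that of the E2F words (2.21 to 10.9%). At other starts E2F words were in 29.4% of the peaks among the 200 strongest, 24.0% of the stronger and 7.37% of the weaker peaks. Reversed E2F words were in 18.9%, 11.7% and 7.01% of these, and CHR words in 69.2%, 40.7% and 19.6%. The rise of both words with strength was thus not particular to the members. The median rank was 522 with both words, 762 with only an E2F word (n = 44), 949 with only a CHR word (n = 145) and 1146 with neither. In replicate 1 the same groups had medians of 487, 838, 1002 and 1085, and in replicate 2 of 531, 738, 972 and 1163, so the order was the same in each. The single words below were counted at the summits of members but at the midpoints of pairs without a summit, and not in reverse. At the midpoints between the members' own starts, E2F words were in 8.95% and reversed E2F words in 7.43%. CHR words there were 18.3 percentage points above the reversed words, against 14.9 at the midpoints of pairs without a summit. Of single words, TTGGCGC was in 6.10% of the members and in 0.785% of pairs without a summit, TTCGCGC in 5.33% and 0.589%, TTCGAA in 11.8% and 7.16%, and TTTGAA in 24.0% and 30.8%.

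A CHR word that runs directly into an E2F word, as in the first 3 sequences printed above, marked some of the strongest members. This arrangement was noticed after the values were seen. It was found in 7 of the 525 members (1.33%), in 17 of the 1397 peaks at other starts (1.22%), in 11 of the 1431 peaks away from starts (0.769%) and in 0 of the 1019 midpoints of pairs without a summit. Both kinds of word, in any arrangement, were present in 35, 126, 59 and 13 of these, so few of the midpoints could show it. The 7 members were fipr-17/Y48A6B.3, clsp-1/eef-2, Y53F4B.9/Y53F4B.11, K07B1.7/try-5, col-38/rpl-5, mdh-2/F20H11.4 and pbs-1/K08D12.3, with ranks of 9, 14, 15, 36, 92, 109 and 222. Their median rank was 36 in the IDR list, 33 in replicate 1 and 40 in replicate 2, and 6 of the 7 were among the 200 strongest peaks. Many other strong members lacked it, the lin-35 promoter among them, which had neither word within 50 bp of its summit.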

How the data were processed

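LIN-35 ChIP-seq peaks of whole L1 larvae were taken from the authors' 4 deposited ce11 peak lists (replicate 1, replicate 2, pooled, IDR). Per the submitters' file manifest, a replicate list was called on 1 replicate against a control, the pooled list on both against a control, and the IDR list was made from all 3. The signal per peak is the authors' own deposited value and served only for ranks and descriptions inside 1 list. The sources used here name no aligner, peak caller or IDR cut-off. The control was not analysed here, and nothing says whether the GFP tag or LIN-35 itself was precipitated. The older-build lists were not used. Read depth is unknown.

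Genes came from Ensembl release 115 (WBcel235), products and bases from RefSeq WBcel235; 19973 protein-coding genes lay on nuclear chromosomes. Summits within 500 bp of starts gave the members, and gene pairs up to 1000 bp apart the background. A replicate peak matched with an overlap of at least 1 bp. Words were searched within 50 bp of the summit. Of 1052 listed symbols, 977 matched the annotation. Python 3.11.15, pandas 2.3.3, numpy 2.4.6 and scipy 1.17.1 were used. Classification and word search were tested on simulated peaks. No test between groups was possible with 1 group, so counts, medians and exact Clopper-Pearson intervals are given.

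The members, the lists and the rule for named genes were chosen with earlier results of these data known. Named were the 15 strongest members, up to 3 genes per list with the strongest member peak, the 20 strongest members with both genes listed, the 3 closest and 3 widest spacings, the 3 members of the 100 strongest with the furthest replicate summits, members at the window's edge, and for sequences the strongest members not on the first chromosome with an E2F word, a CHR word or neither. Genes at all 7 members with adjoining words, the histone pairs, members with both genes in joined lists and those in the closing section were named after their values were seen. A gene that this rule names is not reported here.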

Additional observations from a re-analysis of the deposited data

How the results depend on the processing

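Of 31 alternatives, 21 were labelled unchanged and 10 moved, by limits that differed between kinds of value. The limits for counts were wide, since 738 members against 525 were labelled unchanged. That label therefore does not mean a similar value. Moved were all values of the 250 bp window, the median rank of 930 with replicate 1 alone, and the pair shares of 23.7% and 38.8%. The stricter overlap and the word shares at 100 bp also moved. The alternatives repeat the counts, medians and shares of the members, and the comparisons with other kinds of peak were not repeated under them. A window of 250 bp gave 243 members with a median rank of 1127 and 105 listed genes, and one of 1000 bp gave 738 members and 323 listed genes, by the construction of the window. Starts of any transcript gave 560 members. In the stronger 1919 peaks 23.7% of divergent pairs held a member, and with any IDR summit between the starts the share was 38.8%. A stricter overlap rule, in which the replicate peak must cover the larger part of the member, put 89.0% in both replicates, and 100 bp around the summit gave an E2F or CHR word in 66.5%, an E2F word in 21.1% and a CHR word in 60.2%. With the strongest 3838 peaks of a single replicate in place of the IDR list (without the other), the number of members was 491 to 520, the median rank 930 to 994, the share of pairs 29.3 to 30.9%, the share of summits in the middle part 52.1 to 55.0% and the share with a word 41.7 to 43.8%. Of the 520 promoters, 504 (96.9%) were found again with replicate 2 alone, 467 (89.8%) with replicate 1 alone and 454 (87.3%) with each. No paired analysis was possible because there was only 1 group. Read depth is not given, so whether promoters without a peak lacked LIN-35 or lay below detection cannot be said.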

Other observations

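RefSeq product names gave a view of the member genes that the lists do not, with words chosen after the data were seen. A product name with "mitochondri" was held by 55 of the 1040 member genes (5.29%), by 1.13% of the genes of divergent pairs without an IDR summit and by 1.58% of all autosomal genes with a product. Names with "ribosom" made up 5.77% of member genes, 0.638% of the genes of pairs without a summit and 1.19% of all. Names with "uncharacterized" made up 3.17%, 11.3% and 8.82%, and names with "kinase" 2.50%, 2.99% and 2.66%. "G-protein coupled receptor" was in 1 member gene (0.0962%), 1.08% of the genes of pairs without a summit and 2.04% of all.

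At 5 promoters 2 member peaks lay in the same interval: mtx-1/dnj-12 (ranks 462 and 2023), rpl-1/Y71F9AL.9 (660 and 2879), gcna-1/eftu-2 (874 and 3244), zipt-1/psf-2 (1173 and 1961) and dnj-29/ndua-2 (2299 and 3511). At mtx-1/dnj-12 the stronger summit was 43 bp from mtx-1, which encodes an import protein of the outer mitochondrial membrane, and the weaker was near the middle, 243 bp and 249 bp from the starts. At 4 of the 5 promoters both peaks overlapped the same peak of each replicate list. At zipt-1/psf-2 replicate 1 had a separate peak for each, with ranks of 673 and 2243.

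In 13 members an additional gene start lay within 500 bp of the summit. The strongest was lin-7/elof-1 with Y54G11A.17 (rank 301), and the group included the cohesin gene smc-3 with mib-1 and gly-9 (rank 391) and the centriole duplication kinase zyg-1 with F59E12.17 and sam-4 (rank 775). The 7 members missing from 1 of the replicate lists were vps-2/tiar-2, B0285.3/lcmt-1, chst-1/C41C4.9, dars-1/ctr-9, tag-335/vkmt-1 and sumv-1/gop-1, missing from replicate 1, and Y92H12BM.1/Y92H12BR.7, missing from replicate 2, with ranks of 1081 to 3740.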
